A study of Mus musculus with 16 samples.

Results

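Ccl2, Ccl7, Ccl8 and Ccl12 are chemokine genes of a single cluster on mouse chromosome 11, and the proteins of Ccl2, Ccl7 and Ccl12 attract monocytes through the receptor CCR2. These 4 genes, of 19938 that a probe set of a single symbol names on the array, were chosen by their symbols, and they were proposed after the knockout and wild-type arrays of IL-4c-treated mice had been compared, where Ccl2 and Ccl7 were among the genes with the largest rises. Values from the IL-4c knockout arrays are therefore given as a description, with no test. CCL2 is the main chemokine that draws CCR2-bearing monocytes out of the bone marrow and into tissue, and resident macrophages are among its sources. CCL7 acts at CCR2 and also at CCR1. CCL12 is a further CCR2 ligand of the mouse, and CCL8, which is grouped with these proteins by sequence, is in the mouse mainly known as a ligand of CCR8. Genes of this group are known to be induced together by NF-kB, AP-1 and interferon signals.

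Gene expression was measured on 16 one-colour arrays of macrophages sorted from male C57BL/6 mice; the labels give no age. Bhlhe40 encodes a basic helix-loop-helix repressor, and WT below stands for Bhlhe40+/+ mice and KO for Bhlhe40-/- mice. Alveolar macrophages (AM) of untreated mice gave 2 WT and 2 KO arrays, and large peritoneal macrophages (LPM) of untreated mice gave 3 WT and 3 KO arrays. Mice given IL-4c, a form of IL-4 known for its long action in the body, on days 0 and 2 and killed on day 4 gave LPM arrays of WT, of KO and of a line labelled Bhlhe40LysM, with 2 arrays each. That last name stands for a floxed Bhlhe40 gene with LysM-Cre, a driver active in macrophages, monocytes and neutrophils, so the deletion is not limited to LPM. Mice with LysM-Cre alone or the floxed gene alone were not analysed here, so the line is set against Bhlhe40+/+ mice. The labels do not say whether replicates are separate mice, pools or repeat arrays, so the p-values measure only the spread between these arrays.

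The genes lie on the plus strand of chromosome 11 in the RefSeq annotation of GRCm38.p6: Ccl2 (Entrez 20296) at chr11:82035577-82037452, Ccl7 (20306) at chr11:82045712-82047525, Ccl12 (20293) at chr11:82101845-82103399 and Ccl8 (20307) at chr11:82115185-82116799. They span 81.2 kb. Ccl11 lies between Ccl7 and Ccl12, and Ccl1 lies beyond Ccl8. The RefSeq promoter table used here holds 2 of the 4 genes, Ccl8 and Ccl12. These neighbours, whose starts are 66.3 kb (Ccl12) and 79.6 kb (Ccl8) from that of Ccl2, were the genes of the group that read below the array medians on every naive array and rose above them on some IL-4c arrays, so the 250 bases before each start are shown. Capitals mark the letters TATAAAA and CANNTG, the general form bound by helix-loop-helix proteins. They come from chr11:82114935-82115184 (Ccl8) and chr11:82101595-82101844 (Ccl12), both plus strand.
Ccl8: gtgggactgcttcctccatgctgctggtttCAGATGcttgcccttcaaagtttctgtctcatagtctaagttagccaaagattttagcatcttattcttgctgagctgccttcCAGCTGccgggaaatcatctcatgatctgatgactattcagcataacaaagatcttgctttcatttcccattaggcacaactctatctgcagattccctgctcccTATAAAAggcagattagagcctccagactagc
Ccl12: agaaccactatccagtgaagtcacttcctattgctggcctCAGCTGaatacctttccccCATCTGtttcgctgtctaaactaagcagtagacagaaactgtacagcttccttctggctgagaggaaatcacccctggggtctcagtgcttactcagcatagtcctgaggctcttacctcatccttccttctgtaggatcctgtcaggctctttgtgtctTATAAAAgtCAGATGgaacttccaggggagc

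Both windows held TATAAAA once, from 32 to 26 bases before the start in Ccl8 and from 31 to 25 bases in Ccl12. Of 32851 promoter windows of this length, 4.98% held these letters on either strand. CANNTG occurred 2 times before Ccl8 and 3 times before Ccl12, and 66.2% of all windows held it. CACGTG, the form of this motif that Bhlhe40 is best known to bind, occurred 0 times in both windows and in 6.02% of all windows. The letters TTCNNNGAA (STAT factors, 3-base gap) and TGANTCA (AP-1), the STAT motif with a 4-base gap, the core of the interferon-stimulated response element and the kappaB motif were also in neither window. All windows held them in 7.02%, 6.75%, 5.85%, 2.98% and 7.25% of cases. Both strands were searched each time. The STAT motifs can overlap each other, and every CACGTG is also a CANNTG. These are matches of letters in short windows, and an absent match says only that these letters are not in that window.

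Values are log2 signals, on which a difference of 1 is a 2-fold difference; probe sets differ in response, so levels are compared between groups and not between genes. Array medians lay between 4.79 and 4.93. A reading near or below these medians is close to background, and for olfactory receptor probe sets, whose genes are silent in these cells, the 95th percentile lay between 4.37 and 4.69. Replicate arrays correlated at 0.989 to 0.995 across probe sets. Gata6, which defines LPM, read at least 8.54 on every LPM array and at most 5.0 on the AM arrays, and Siglecf, an AM marker, read at least 8.90 on the AM arrays and at most 5.27 on the LPM arrays. The Bhlhe40 signal was lower in KO by 2.17 (SE 0.19, limma adjusted p = 6.1e-05) in AM and by 1.89 (SE 0.15, adjusted p = 6.38e-06) in naive LPM. The arrays labelled Bhlhe40LysM read 8.75 and 8.83 for Bhlhe40, against 8.77 and 8.99 in IL-4c WT. The sources used here do not place the probes relative to the deleted part, so this signal checks nothing, and results from these arrays rest on their label.

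In several groups replicate arrays differed from each other in some of these genes far more than in most genes. The IL-4c KO arrays differed from each other by 2.87 in Ccl2, 2.64 in Ccl7, 3.94 in Ccl8 and 2.05 in Ccl12, with replicate 1 the higher each time, against a median difference of 0.18 over the 11634 genes tested. The Bhlhe40LysM arrays differed by 2.05 in Ccl2 and 1.88 in Ccl7, again with replicate 1 the higher, but by 0.24 in Ccl8 and 0.26 in Ccl12, against a median of 0.19. The IL-4c WT arrays differed by 1.67 in Ccl8, against a median of 0.17. AM arrays differed by 0.86 (WT) and 1.19 (KO) in Ccl2 and by 1.37 and 1.26 in Ccl7, with replicate 2 the higher. Naive LPM arrays ranged over 0.47 (WT) and 0.49 (KO) in Ccl2 and over 0.96 and 0.21 in Ccl7, against medians of 0.22 and 0.30. Over all 7 groups the within-group SD was 0.92 for Ccl2, 0.93 for Ccl7, 1.02 for Ccl8 and 0.51 for Ccl12. Replicate 1 was the higher of each IL-4c pair, WT included, for Ccl2, Ccl7 and Ccl8.

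Ccl2 was well above the array medians in naive macrophages of both sites and near them in LPM of IL-4c-treated WT mice. It read 9.27 and 10.13 in AM of WT and 9.26 and 10.45 in AM of KO. Naive LPM read 8.31, 7.84 and 8.03 in WT and 8.32, 7.98 and 7.83 in KO. After IL-4c the WT arrays read 5.09 and 4.64, below every other array of the series. The KO arrays read 9.67 and 6.81 and the Bhlhe40LysM arrays 10.32 and 8.27, so the range of both groups reached the range of naive cells or passed it. By group means the order ran from AM KO (9.85), AM WT (9.70), Bhlhe40LysM (9.29) and IL-4c KO (8.24) to naive LPM WT (8.06) and KO (8.04), with overlapping arrays between each pair of neighbours. IL-4c WT came last at 4.86, 3.18 below its neighbour and with no overlap.

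Ccl7 followed a similar pattern, with its highest readings under IL-4c. Naive AM read 7.03 and 8.40 in WT and 7.50 and 8.76 in KO. Naive LPM read 7.13, 6.17 and 6.86 in WT and 7.56, 7.35 and 7.51 in KO, a small gap without overlap. IL-4c WT read 5.69 and 4.85, IL-4c KO 10.36 and 7.72, and Bhlhe40LysM 10.75 and 8.88. The arrays of Bhlhe40LysM (mean 9.82), IL-4c KO (9.04), AM KO (8.13), AM WT (7.71) and naive LPM KO (7.47) overlapped from neighbour to neighbour. Naive LPM WT (6.72) and IL-4c WT (5.27) each lay below the group above them with no overlap.

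Ccl8 was read above background in IL-4c LPM only, among these 7 groups. On the 10 naive arrays it lay between 2.92 and 3.38, below the olfactory receptor level on every array. IL-4c WT read 6.33 and 4.66, IL-4c KO 9.0 and 5.06, and Bhlhe40LysM 9.10 and 8.86. Bhlhe40LysM was the only group with both arrays near 9, and the KO arrays were split between that level and the WT range. The arrays of the 3 IL-4c groups overlapped from neighbour to neighbour (means 8.98, 7.03 and 5.49), and the lowest of them stood 2.31 above the highest naive group without overlap.

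Ccl12 was close to background on most arrays. Naive arrays read from 3.05 to 3.96, and IL-4c WT read 4.13 and 4.19, all below the array medians. IL-4c KO read 6.70 and 4.65, and Bhlhe40LysM 5.66 and 5.92. Only 3 arrays, KO replicate 1 and both Bhlhe40LysM arrays, read above their medians. Bhlhe40LysM (mean 5.79) and IL-4c KO (5.68) overlapped, and IL-4c WT (4.16) lay below both without overlap, followed by the naive groups (3.29 to 3.91) at background. Ccl8 exceeded the array median on 5 arrays, all of IL-4c LPM. Genes were tested where at least 2 arrays exceeded their median, so Ccl8 and Ccl12 entered the test only through the IL-4c groups in which they were high, and no count over the 4 genes is read as support.

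**Figure D1:**
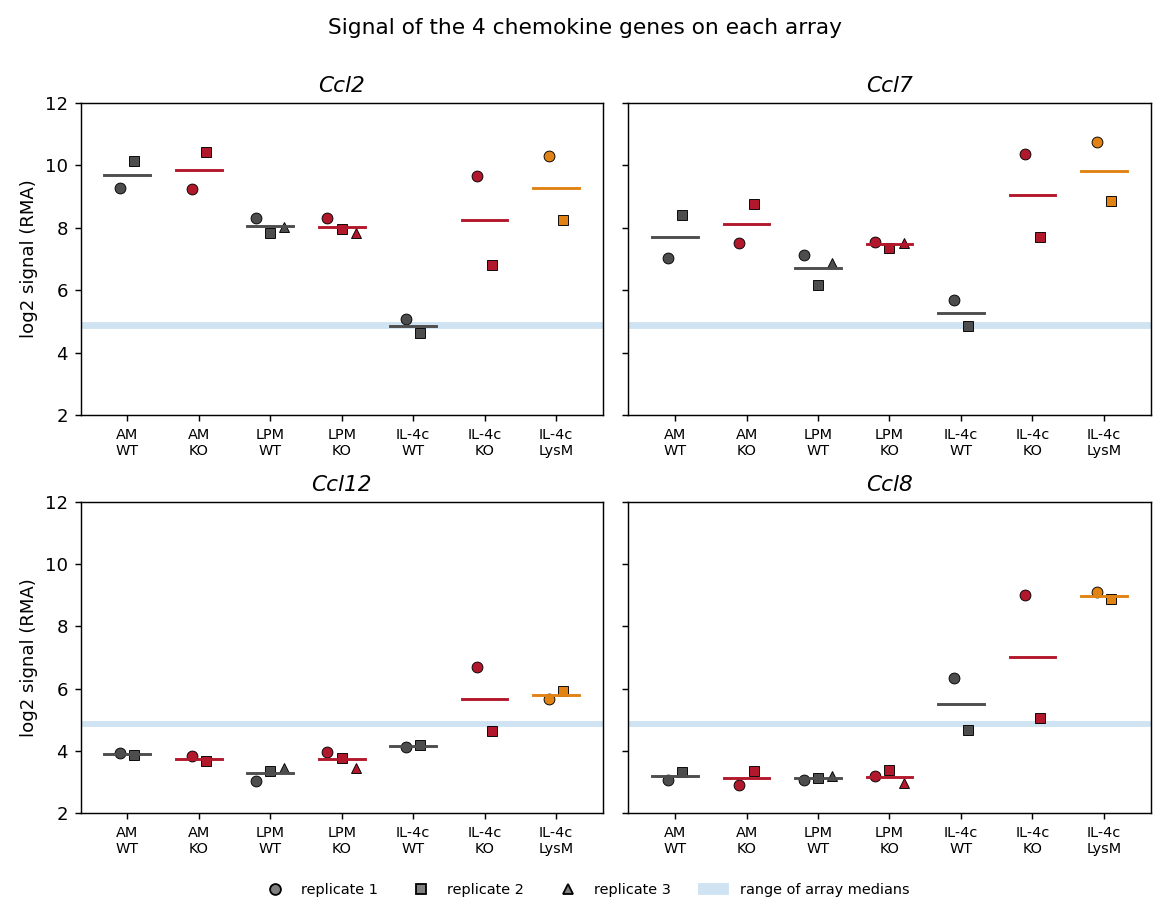
Log2 signal of Ccl2, Ccl7, Ccl12 and Ccl8 (vertical axes) on each of the 16 arrays, by group (horizontal axes); points are arrays, bars are group means and the band is the range of array medians, 4.79 to 4.93. IL-4c WT is the lowest group for Ccl2 (4.86) and Ccl7 (5.27), whereas Ccl8 and Ccl12 rise above the band on IL-4c arrays only.

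Across the 16 arrays, which share groups and treatment, the genes fell into pairs. Ccl2 correlated with Ccl7 at r = 0.79 and Ccl8 with Ccl12 at r = 0.93, whereas Ccl2 correlated with Ccl8 at r = 0.04 and with Ccl12 at r = 0.18. Ccl7 lay between the pairs, at r = 0.58 with Ccl8 and r = 0.67 with Ccl12. These are descriptions over arrays of 7 groups and not over independent samples of a single kind.

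In naive macrophages no difference between KO and WT in the 4 genes passed the test. In AM, KO minus WT was 0.15 for Ccl2 (SE 0.71, 95% interval -1.35 to 1.66, limma adjusted p = 0.988) and 0.42 for Ccl7 (interval -1.11 to 1.94, adjusted p = 0.964). In LPM it was -0.02 for Ccl2 (SE 0.58, interval -1.24 to 1.21, adjusted p = 0.993) and 0.75 for Ccl7 (interval -0.49 to 2.00, adjusted p = 0.596), although the KO arrays of Ccl7 all lay above the WT arrays. These intervals are wide and leave room for differences of more than 2-fold. Their width comes from 1 variance shared by all 7 groups, the IL-4c arrays included. The SD of Ccl2 was 0.24 (WT) and 0.25 (KO) in naive LPM and 0.61 and 0.84 in AM. It was 2.03 in IL-4c KO and 1.45 in Bhlhe40LysM. Ccl8 and Ccl12 were at background in all naive groups and say nothing on the matter.

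Of the genes tested, 0.12% were called in AM and 1.88% in naive LPM (0.533% higher and 1.35% lower), at an adjusted p under 0.05, and 0 of the 4 genes were called in either. At an unadjusted p under 0.05 there were 620 and 1754 genes among all tested, with 0 of the 4. The effect of genotype was not shown to differ between the cell types: the LPM minus AM difference of differences was -0.17 for Ccl2 (adjusted p = 0.957), 0.34 for Ccl7 (0.901), 0.10 for Ccl8 (0.98) and 0.60 for Ccl12 (0.643), where 0.249% of genes were called. At an unadjusted p under 0.05 this held 1524 genes and 0 of the 4.

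Between the resting cell types, Ccl2 was lower in LPM than in AM in both genotypes, without overlap of arrays. The difference was -1.64 (SE 0.65, limma adjusted p = 0.0564) in WT, which did not pass the threshold, and -1.81 (SE 0.65, adjusted p = 0.0349) in KO, 3.51-fold, which did. In the WT comparison 38.3% of all genes were called in either direction, and in the KO comparison 22.8% were called lower, so a call here is common. In WT 0 of the 4 genes were called, and Ccl2 was the only 1 of them among the 5277 genes at an unadjusted p under 0.05. The KO call was lost without AM KO replicate 2 (-1.22, adjusted p = 0.289), LPM KO replicate 2 (-1.78, adjusted p = 0.0759) or LPM KO replicate 3 (-1.71, adjusted p = 0.0778). Ccl7 differed by -0.99 in WT (adjusted p = 0.26) and -0.65 in KO (adjusted p = 0.462), within the spread of the AM arrays. In bulk arrays, fewer cells with a transcript and less transcript per cell cannot be told apart.

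IL-4c arrays of WT LPM read lower in Ccl2 and higher in Ccl8 than naive arrays. No vehicle-injected group is among the 7 groups. An effect of IL-4c thus cannot be told apart from one of injection or of the set of arrays. Array maxima were 13.15 to 13.33 on naive arrays and 13.67 to 13.84 on IL-4c arrays. Ccl2 fell by 3.20 on the log2 scale (SE 0.65, 9.17-fold, limma adjusted p = 0.000936), from 7.84 or more on every naive array to 5.09 or less. Ccl7 was lower by 1.45 (SE 0.65, adjusted p = 0.0885) and Ccl12 higher by 0.87 (SE 0.37, adjusted p = 0.0702), both without overlap of arrays and without passing the threshold. Ccl8 was higher by 2.35 (SE 0.71, 5.11-fold, adjusted p = 0.0149). It entered the test only through its high IL-4c arrays; with no filter on dim genes its adjusted p was 0.0182. Since Ccl2 ended near the array medians and Ccl8 began below them, both fold changes are limited by background and not exact. Ccl12 lay below the olfactory receptor level in both groups, so its difference is between background readings.

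A large part of the array differed in this comparison, with 22% of genes called higher and 19.2% called lower, so single calls such as that of Ccl2 are common here. The IL-4c WT arrays are also those against which the knockout rise was seen, so a low Ccl2 reading there is not independent of how the genes were chosen. Ccl2 stayed called in each of the 13 alternative settings, between -3.42 and -2.97. The difference in Ccl8 was 1.52 without IL-4c WT replicate 1 (adjusted p = 0.201) and 3.19 without replicate 2.

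In LPM of KO mice the IL-4c arrays did not show the low Ccl2 and Ccl7 of WT. KO minus WT under IL-4c was 3.38 for Ccl2 (10.4-fold), 3.77 for Ccl7 (13.6-fold), 1.51 for Ccl12 (2.86-fold) and 1.54 for Ccl8 (2.90-fold), where the groups overlapped for Ccl8 only. These are the values that proposed the genes. Without KO replicate 1 the differences were 1.95, 2.45, 0.49 and -0.43 in the same order, and without KO replicate 2 they were 4.82, 5.09, 2.54 and 3.51. For Ccl8 the rise therefore rests on KO replicate 1, whereas for Ccl2, Ccl7 and Ccl12 both KO arrays read above both WT arrays. The share of all genes that separate in this way was not counted, so the separation is not read as support. For Ccl12, KO replicate 2 read 4.65, below its array median.

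Set against naive LPM of the same genotype, IL-4c KO differed by 0.20 in Ccl2, with overlapping arrays, and by 1.56 in Ccl7, 3.85 in Ccl8 and 1.94 in Ccl12, without overlap. Without KO replicate 1 these were -1.23 in Ccl2, 0.24 in Ccl7, 1.88 in Ccl8 and 0.92 in Ccl12, and without KO replicate 2 they were 1.63, 2.88, 5.82 and 2.97. The sign for Ccl2 thus depended on the array, and no size is firm. On the arrays as a whole, Ccl7 lay below the naive arrays in IL-4c WT and above them in IL-4c KO. The KO minus WT effect was larger under IL-4c than in naive LPM by 3.40 for Ccl2, 3.01 for Ccl7, 1.5 for Ccl8 and 1.07 for Ccl12, and this was not tested, since it rests on the arrays that proposed the genes. Single arrays left out moved these values over 1.96 to 4.83, 1.70 to 4.33, -0.47 to 3.47 and 0.04 to 2.09.

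The arrays labelled Bhlhe40LysM are not part of the contrast that proposed the genes, so their difference from WT was tested. Both contrasts share the IL-4c WT arrays, so it is not independent of the choice. Ccl2 was higher by 4.43 (SE 0.71, 21.6-fold, 95% interval 2.93 to 5.93, limma adjusted p = 0.00136), with arrays of 10.32 and 8.27 against 5.09 and 4.64. Ccl7 was higher by 4.55 (SE 0.72, 23.4-fold, interval 3.02 to 6.07, adjusted p = 0.00124), with arrays of 10.75 and 8.88 against 5.69 and 4.85. For both genes the lower Bhlhe40LysM array was above the higher WT array. The Bhlhe40LysM arrays themselves differed by 2.05 in Ccl2 and 1.88 in Ccl7. The WT arrays, which read nearer the array medians, differed by 0.45 and 0.83.

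Ccl8 was higher by 3.49 (SE 0.78, 11.2-fold, adjusted p = 0.012) and Ccl12 by 1.63 (SE 0.40, 3.09-fold, adjusted p = 0.0201), also without overlap of arrays. Both genes entered the test only through IL-4c arrays on which they were high, the Bhlhe40LysM arrays among them; with no filter on dim genes their adjusted p was 0.0137 and 0.0239. With WT readings near or below the array medians, the fold changes of all 4 genes are not exact. In this comparison 4.8% of all genes were called higher and 3.87% lower. Ccl2 (3.41 to 5.46) and Ccl7 (3.61 to 5.48) stayed called in all 12 alternative settings, with adjusted p of at most 0.0286 and 0.0261. The call of Ccl12 was lost when any of the 4 arrays was left out, with adjusted p of 0.0825 and 0.113 without WT replicates 1 and 2 and 0.0847 and 0.0715 without Bhlhe40LysM replicates 1 and 2. The call of Ccl8 was lost without WT replicate 2 (2.65, adjusted p = 0.164), without Bhlhe40LysM replicate 1 (3.37, adjusted p = 0.0896) and with an intensity trend and robust variance (adjusted p = 0.0601). Bhlhe40LysM minus KO was 1.05 for Ccl2, 0.78 for Ccl7, 1.95 for Ccl8 and 0.11 for Ccl12, with overlapping arrays for each gene, and was not tested. Without KO replicate 2 it was below 0 for each gene, at -0.38, -0.54, -0.02 and -0.91, and without KO replicate 1 it was 2.48, 2.10, 3.92 and 1.14. No direction can be read between these groups.

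**Figure D2:**
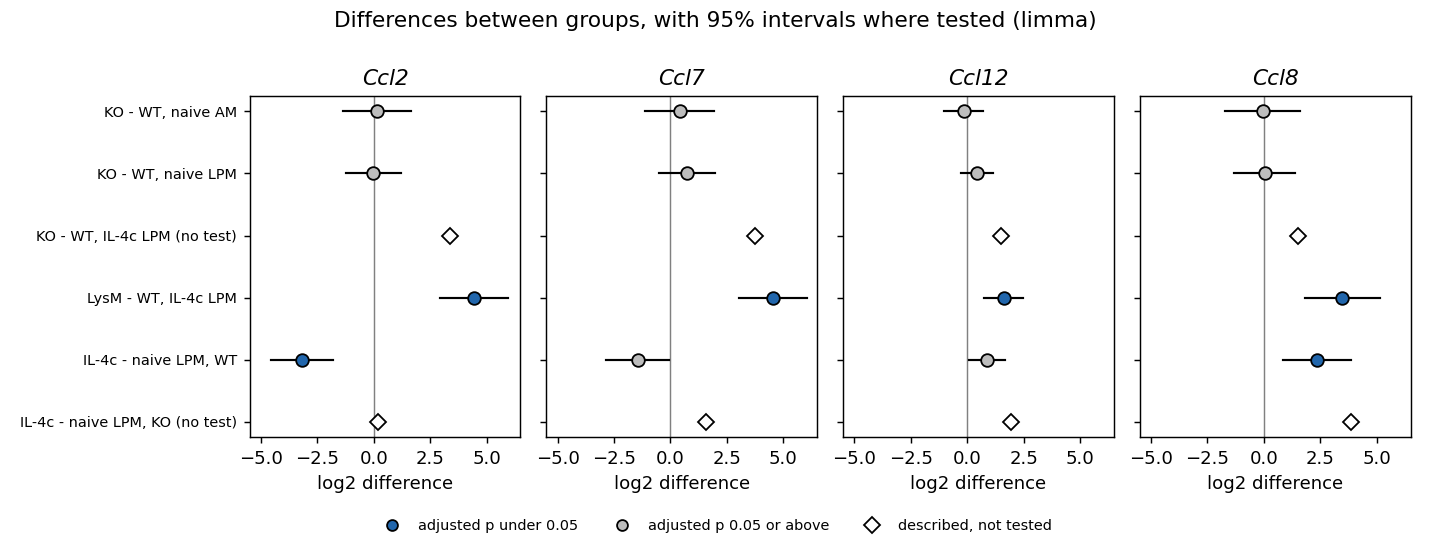
Log2 difference between groups (horizontal axes) for Ccl2, Ccl7, Ccl12 and Ccl8 in 6 comparisons (vertical axis); circles carry the 95% interval of the limma fit, blue where the adjusted p was under 0.05, and open diamonds are described with no test. Intervals span 0 in both naive comparisons, and all 4 genes lie above 0 for Bhlhe40LysM against WT, from 1.63 for Ccl12 to 4.55 for Ccl7. Ccl8 and Ccl12 entered the test only through IL-4c arrays, and the IL-4c WT arrays took part in proposing the genes. The number of genes above 0 is therefore not read as support.

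The 2 other chemokine genes of the cluster stayed near background. Ccl11, which encodes eotaxin, read from 4.22 to 4.85 and Ccl1, a CCR8 ligand, from 3.91 to 4.73 over the 16 arrays, and neither exceeded the array median on 2 arrays, so neither was tested. Ccl11 lies between Ccl7 and Ccl12 on the chromosome. On the Bhlhe40LysM arrays it read 4.74 and 4.85, against 4.22 on both IL-4c WT arrays. The genes with high IL-4c KO and Bhlhe40LysM readings thus lay on both sides of a gene read near background on every array.

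**Figure D3:**
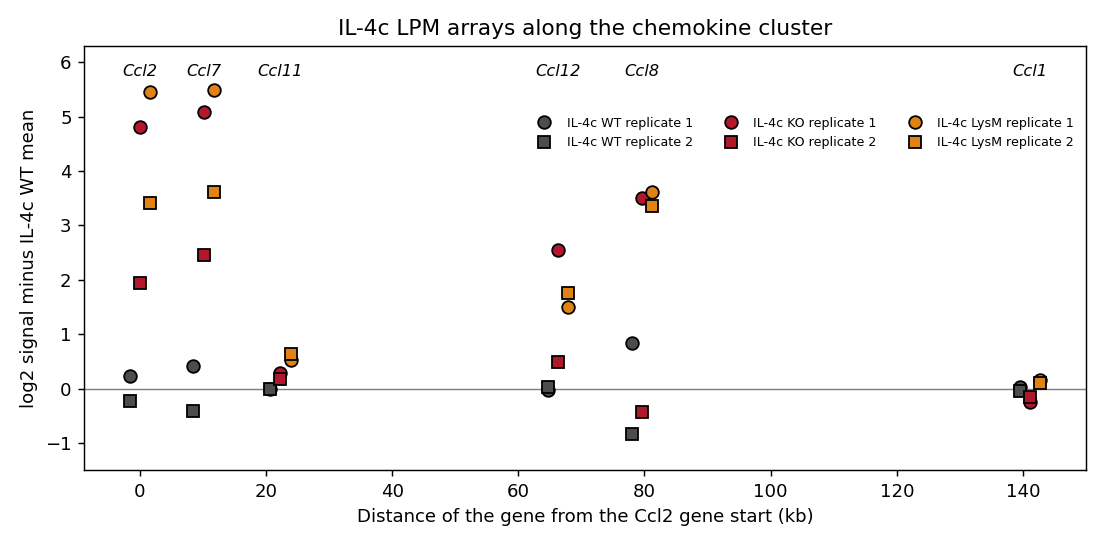
Log2 signal of each IL-4c LPM array minus the IL-4c WT mean (vertical axis) for the 6 chemokine genes of the cluster, placed by the distance of the gene start from that of Ccl2 in kb (horizontal axis; points are set slightly apart sideways). Ccl2, Ccl7, Ccl12 and Ccl8 lie up to 5.48 above the WT mean, and Ccl11 and Ccl1 stay near it.

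Receptor genes were near background or fell with IL-4c in WT. Of 9 receptor genes listed, 8 were measured and 3 were tested. Ccr2, the monocyte receptor for these ligands, read 4.82 to 5.98 in naive LPM of WT and 4.71 and 4.06 after IL-4c, a fall of 1.10 (SE 0.31, limma adjusted p = 0.00949). It read 4.21 and 3.86 on the IL-4c KO arrays and 4.16 and 4.13 on the Bhlhe40LysM arrays, so it was below the array median on all 6 IL-4c arrays. Ccr1, a receptor of CCL7, fell by 0.83 with IL-4c in WT (adjusted p = 0.000598). Ccrl2, an atypical receptor that binds chemerin, fell by 2.30 with IL-4c in WT (adjusted p = 7.99e-07) and by 0.92 in naive KO LPM (SE 0.19, adjusted p = 0.0205). Bhlhe40LysM against WT called 0 of the 3. Ccr8 read from 2.45 to 3.25 and Ccr3 from 3.48 to 4.17, at background.

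Other chemokines of macrophages fell with IL-4c in WT, with exceptions. Of 21 genes listed, 19 were tested. With IL-4c in WT 10 were lower and 1 was higher, where 19.2% and 22% of all genes were called. The median was -0.60 against 0.02 over all genes tested. The falls were led by Cxcl13 (-5.32), Cxcl2 (-4.52) and Ccl3 (-4.52). The riser was Ccl5, a ligand of CCR1, which rose by 2.97 (SE 0.69, limma adjusted p = 0.00264). Ccl5 read 8.88 and 7.90 in IL-4c WT, 10.53 and 6.66 in KO and 9.28 and 10.23 in Bhlhe40LysM, so its KO arrays were split in the same direction as those of Ccl8.

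Against IL-4c WT, the Bhlhe40LysM arrays were higher in 7 of the 19 and lower in 0, where 4.8% and 3.87% of all genes were called, with a median of 0.30 against -0.01 over all genes. Ccl3, a ligand of CCR1, was higher by 2.25 (SE 0.62, limma adjusted p = 0.034), Cxcl13, a B-cell chemoattractant, by 2.17 (SE 0.36, adjusted p = 0.0017) and Cxcl16 by 1.64 (SE 0.22, adjusted p = 0.000439). Ccl3 read 8.01 and 5.40 in Bhlhe40LysM and 6.98 and 5.44 in KO, with replicate 1 the higher in both, as in Ccl2 and Ccl7. It read 8.61 or more on the naive LPM arrays, so Ccl3 stayed below the naive level in all IL-4c groups, whereas Ccl2 and Ccl7 of Bhlhe40LysM did not. In naive AM and naive LPM, KO against WT called 0 of the 19.

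**Figure D4:**
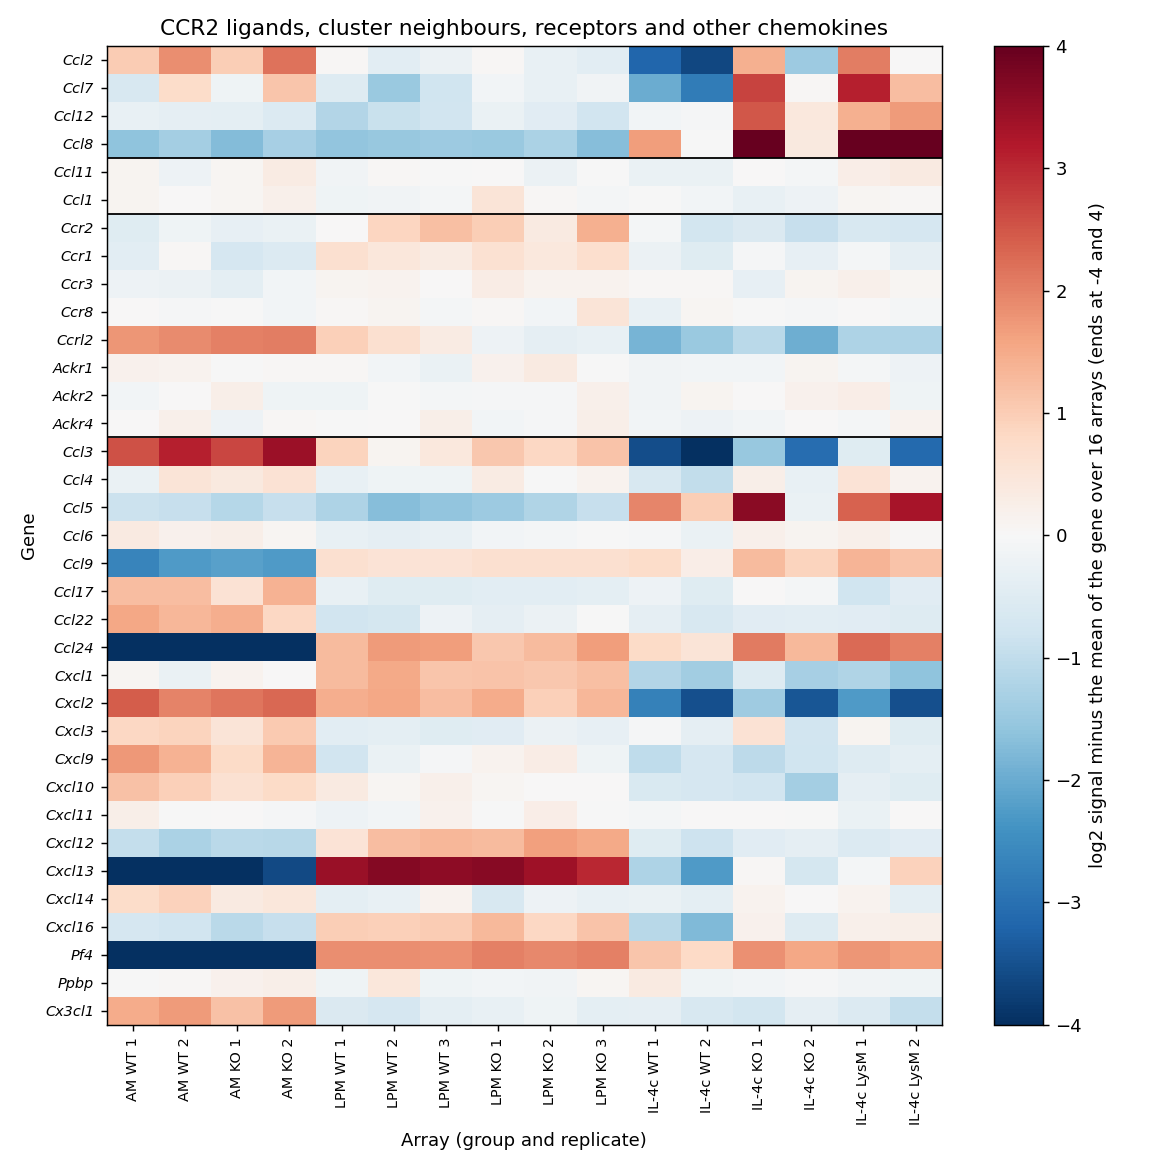
Log2 signal of each gene minus its mean over the 16 arrays (colour, with the scale ending at -4 and 4) for the 4 CCR2-ligand genes, their cluster neighbours, the receptors and the other listed chemokines (rows) on each array (columns). Ccl2 and Ccl7 are blue on the IL-4c WT arrays and red on IL-4c KO replicate 1 and Bhlhe40LysM replicate 1, and Ccl8 and Ccl5 are red on IL-4c arrays.

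Genes of signals that induce these chemokines were described in lists. Of 25 genes of the NF-kB and AP-1 response, 23 were tested. With IL-4c in WT 11 were lower (19.2% of all genes), led by Nfkbiz (-3.06), Fos (-2.54) and Jun (-2.12). A further 3 were higher (22% of all genes, so fewer than the background share), led by Il6 (2.09), and the median was -0.39. Bhlhe40LysM was higher than WT in 5 of the 23 (4.8% of all genes), among them Ier3 (1.48), Fos (1.43) and Jun (0.93), and lower in 1, Il6 (-1.67, limma adjusted p = 0.00113), with a median of 0.22. Il6 so moved against Ccl2 in both comparisons, whereas most called genes of the list moved with Ccl2. The mean of the 24 measured genes was 6.61 and 6.66 on the IL-4c WT arrays, 7.06 and 6.75 in KO and 7.01 and 6.84 in Bhlhe40LysM, with replicate 1 the higher in both, as for Ccl2 and Ccl7. The part of these signals in the chemokine readings was not tested.

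Of 18 interferon response genes, 15 were measured and 13 tested. Bhlhe40LysM was higher than WT in 7 of the 13 (4.8% of all genes) and lower in 0, with a median of 0.80 against -0.01 over all genes. Irf7, a transcription factor of the interferon response, was higher by 2.15 (SE 0.33, limma adjusted p = 0.000955), Oasl2 by 1.33 and Usp18 by 1.28. IL-4c in WT called 4 lower, Ifit3 (-1.12) and Irf1 (-1.0) among them, and 0 higher; with 19.2% of all genes called lower, so short a list says little. The list mean was 5.68 and 5.54 in IL-4c WT, 6.18 and 5.70 in KO, and 6.65 and 6.20 in Bhlhe40LysM. KO replicate 1 was thus above KO replicate 2 here too. Among other lists, the same held for markers of monocytes (7.47 and 7.28), macrophages (9.74 and 9.47) and neutrophils (4.19 and 3.97). It did not hold for markers of eosinophils (3.78 and 4.03), mesothelial cells and fibroblasts (4.35 and 4.49), mast cells (3.54 and 3.61) or endothelial cells (4.34 and 4.38). Of these lists only the monocyte and macrophage means were above the array medians. The part of interferon signals in the chemokine readings was not tested. Cxcl10 is in this list and among the other chemokines.

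Genes of resident tissue macrophages that are often found together with Ccl2, Ccl7 and Ccl8 were described in a further list. Of 18 listed, 16 were tested. In naive LPM 6 were higher in KO (0.533% of all genes) and 0 lower, with a median of 0.61 against -0.03 over all genes. The rises were led by Stab1 (3.31), a scavenger receptor, and Lyve1 (2.19), the hyaluronan receptor. Bhlhe40LysM was higher than IL-4c WT in 7 (4.8% of all genes), led by Stab1 (3.52), Folr2 (1.96) and Cd163 (1.59), and lower in 1, Timd4 (-0.86), with a median of 0.71. Stab1 read 9.38 and 9.18 on the IL-4c KO arrays, so it did not share their split in the chemokine genes. Pf4 is in this list and among the other chemokines.

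Markers of monocytes, the cells these ligands recruit and which can also make them, were given as measured. Of 11 genes listed, several also made by macrophages, 9 were measured and 8 tested. The list mean was 6.72 to 7.10 on the IL-4c WT arrays, 7.28 to 7.47 in KO and 7.27 to 7.41 in Bhlhe40LysM. WT thus lay below both other groups without overlap. Plac8 was the only gene of the list called between Bhlhe40LysM and WT. It was higher by 4.36 (SE 0.56, limma adjusted p = 0.000289), with arrays of 7.12 and 9.41 against 4.66 and 3.14. The list's median difference was -0.0036. Without Plac8, a choice made after its values were seen, the list mean was 7.17 to 7.41 in WT. It was 7.06 to 7.23 in KO and 7.15 to 7.29 in Bhlhe40LysM, so the groups overlapped. Since the gene that differed was left out, this overlap shows only that the gap in the list mean rested on Plac8. IL-4c in WT called 5 of the 8 lower, led by Hp (-3.50), Cd177 (-1.62) and Plac8 (-1.51), and 1 higher, Chil3 (5.66), which IL-4 is known to induce in macrophages.

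Of the defining monocyte markers, Ccr2 was the only 1 analysed here, and it was below the array median on all 6 IL-4c arrays. Its difference between Bhlhe40LysM and WT was -0.24 (limma adjusted p = 0.745). Plac8 read 9.38 and 9.03 on the IL-4c KO arrays, so it did not share their split in the chemokine genes. Neutrophil markers averaged 3.97 to 4.2, B-cell markers 3.97 to 4.21 and T and NK cell markers 3.54 to 3.79 on the IL-4c arrays, below the array medians. In WT, B-cell markers moved with the IL-4c change in Ccl2: they averaged 4.68 to 4.82 in naive LPM and 3.97 to 4.03 after IL-4c. Of 5 tested, 4 fell, led by Cd79a (-1.65), Cd79b (-1.58) and Ms4a1 (-1.32), and their part in the fall of Ccl2 was not tested. In KO the B-cell markers averaged 4.45 to 5.19 in naive LPM and 4.18 to 4.21 after IL-4c, where Ccl2 differed by 0.20 with overlapping arrays. Bhlhe40LysM against WT called 0 of these 5. Markers of small peritoneal macrophages and dendritic cells averaged 5.44 to 5.51 in IL-4c WT, 5.55 to 5.61 in KO and 5.59 to 5.61 in Bhlhe40LysM. Of 6 tested, Bhlhe40LysM was higher than WT in Clec10a (1.41, limma adjusted p = 0.0158), a lectin that IL-4 is also known to induce in macrophages, and in Itgax (0.64), which stayed below the array medians on both groups' arrays, and lower in Irf4 (-0.80, adjusted p = 0.00486). With IL-4c in WT Clec10a (3.16), Batf3 (0.94) and Irf4 (0.82) were higher and Ccr7 (-0.61) was lower. These markers thus moved with the chemokine genes in part, and their part in the chemokine readings was not tested.

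The genes most like each chemokine gene were taken by Pearson correlation of log2 signals over the 16 arrays, among 11140 tested genes with established symbols. For Ccl2 these were Sgpl1 (r = 0.94), C5ar1 (0.94), the receptor of complement fragment C5a, Tgoln1 (0.90), Rbms1 (0.89) and Ccl4 (0.89). For Ccl7 they were Kctd4 (0.93), Emp1 (0.88), Rbms1 (0.88), Cd72 (0.85) and Snx24 (0.85). Ccl2 and Ccl7 thus had Rbms1 in common. For Ccl8 they were Cd209e (0.98), Plpp3 (0.96), Ccl5 (0.96), Oasl1 (0.95) and Timp1 (0.95), and for Ccl12 they were Slc66a1 (0.94), Mapk7 (0.93), Prep (0.93), Gja1 (0.93) and Lrrc32 (0.93). C5ar1 was lowest in IL-4c WT among the 7 group means (8.71), as Ccl2 was. Cd209e averaged 5.36, 6.27 and 7.30 in IL-4c WT, KO and Bhlhe40LysM, the same order as Ccl8. The arrays share groups and treatment, and these likenesses carry no test.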

How the data were processed

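Values are log2 signals per probe set that the authors deposited for 16 arrays and 30177 probe sets, computed by RMA according to the submitters' processing notes, which name no version. RMA scales arrays to each other, so total RNA per cell cannot be compared. The deposited arrays still did not share 1 distribution, with medians of 4.79 to 4.93. Their maxima were 13.15 to 13.33 on naive arrays and 13.67 to 13.84 on IL-4c arrays. Of the probe sets 21789 had 1 symbol, 1621 several and 6767 none here; 21698 matched the RefSeq gene table by Entrez ID. The probe set with the highest mean stood for a gene; each of the 4 genes has 1. Genes above the array median on at least 2 arrays, 11634 in all, were fitted as group means over the 16 arrays with limma 3.58.1 in R 4.3.3 (9 residual degrees of freedom), with Benjamini-Hochberg adjustment over all genes tested and a threshold of 0.05. The fit was tested on simulated data. Groups came from sample titles. From each list, counts are given and up to 3 called genes per direction, by size, may be named, plus receptors and cluster neighbours. The members and lists were chosen with earlier results of these data known. Alternatives were a second quantile normalization, median centring, no dim filter, mean of probe sets, intensity trend with robust variance, only the arrays compared, array weights, the replicate number as a block and single arrays left out. Figures used matplotlib 3.10.9. The number of arrays limits the precision.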

Additional observations from a re-analysis of the deposited data

Results flagged for a closer look

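Ccl7 stood on opposite sides of its naive readings after IL-4c in WT and KO. Both IL-4c WT arrays lay below every naive WT array of LPM (-1.45), and both IL-4c KO arrays lay above every naive KO array (1.56), a difference of differences of 3.01. The WT difference did not pass the test (limma adjusted p = 0.0885), and the KO difference was not tested and was 0.24 without KO replicate 1. The difference between the genotypes was not tested either, since the IL-4c KO arrays took part in proposing the gene, and it was 1.70 without IL-4c KO replicate 1 and 4.33 without replicate 2.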

How the results depend on the processing

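Precision is limited by 2 or 3 arrays per group and by background, which bounds Ccl8 and Ccl12 in naive cells and Ccl2 in IL-4c WT. Counts of called genes among the 4 kept to 0 in both naive KO against WT comparisons and their interaction under every alternative run. With only the compared arrays in the fit, 3 were called between naive LPM and AM in WT (0 in the fit over all arrays), where 4571 of 11634 genes were called. For IL-4c in WT 4 were called (2), where 5248 genes were called. Ccl8 and Ccl12 entered the test only through IL-4c arrays, so the counts are not read as support. With an intensity trend and robust variance the counts were 0 for LPM against AM in KO (1) and 1 for IL-4c in WT. There 4706 and 4803 of all genes were called. With the replicate block the count for LPM against AM in KO was 0 (Ccl2 -1.75, limma adjusted p = 0.0501), and it changed no other call of the 4 genes. Deviations of same-numbered arrays correlated at -0.14 to 0.21 over 43 pairs, with 8 above 0.1, so the numbers were not taken as pairing the samples. Of these 8, 6 lay between the IL-4c groups (0.11 for WT and KO, 0.15 for WT and Bhlhe40LysM, 0.21 for KO and Bhlhe40LysM). In groups of 2 arrays the deviations mirror each other, so replicates 1 and 2 give the same value. Each such value is therefore counted 2 times, and the pairs are not separate observations. The values are a hint of shared numbers there that 2 arrays per group cannot settle. Within each number Ccl8 read higher in IL-4c KO than in IL-4c WT. Leaving out single arrays gave 0 to 1 called genes for LPM against AM in KO, 2 to 4 for Bhlhe40LysM against WT (2 without WT replicate 2 or Bhlhe40LysM replicate 1) and 1 to 2 for IL-4c in WT (1 without IL-4c WT replicate 1). The medians of the 4 described differences ran, without single arrays, from 1.22 to 4.16 for KO against WT under IL-4c, from -0.46 to 2.29 for Bhlhe40LysM against KO, from 0.58 to 2.93 for IL-4c in KO and from 0.87 to 3.90 for the genotype by IL-4c difference; the extremes came without KO replicate 1 or 2, and the sign of Bhlhe40LysM against KO reversed without KO replicate 2.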
